A study of Drosophila melanogaster with 4 samples.

Results

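The Notch gene (N) and the Enhancer of split complex were examined in LSD1 ChIP-seq of head nuclei of adult Drosophila melanogaster. Members were the enriched regions that overlapped either of 2 windows of the release 5 genome. The Notch window was X:3023000-3072000, of 49 kb, and was given with an approximate gene span of 3028900 to 3066300. The Enhancer of split window was 3R:21815000-21880000, of 65 kb, with gro at its high-coordinate end. Of 29042 enriched regions in 3 lists, 22 met this rule. They were 8 of 8115 regions of ChIP replicate 1, 6 of 9911 of ChIP replicate 2 and 8 of 11016 of the combined list of the replicate set. Each list held the same number of regions in both windows, with 4 each in the replicate 1 list, 3 each in the replicate 2 list and 4 each in the combined one. Windows of the same size laid end to end along the arm held medians of 4, 3 and 5 regions on X. On 3R the medians were 4, 6 and 6, with the lists in the same order.

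LSD1, the product of the fly gene Su(var)3-3, removes methyl groups from lysine 4 of histone H3 and works with the corepressor CoREST. The study had 2 ChIP samples, made with the LSD1 antibody Q3430, and 2 input samples of chromatin that was not precipitated. All came from head nuclei of wild-type Oregon-R adults (stage Mixed Adult), with no mutation, transgene or treatment. For each ChIP sample 1 region list was used. Heads hold neurons, glia, eye, fat and muscle cells, so high enrichment in few cells and low enrichment in many cannot be told apart. The sources used here do not say whether the replicates were separate fly collections, so their spread may be technical.

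Notch is a transmembrane receptor. When a neighbouring cell presents the ligand Delta or Serrate, Notch is cleaved and its intracellular part enters the nucleus, where it joins the DNA-binding protein Su(H) and the coactivator Mastermind. Main targets are the E(spl) bHLH genes, whose products are repressors of neural genes. These repressors recruit Groucho, the corepressor encoded by gro, which lies beside them. LSD1 has been linked genetically to the Notch pathway in flies.

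The rule named 9 genes, and all 9 were found in the RefSeq gene table. This table follows Release 6, so it was used for gene order and not for positions. On X, rst and CG4116 were listed before N, and kirre was the gene whose end came nearest to N on that side. The gene kirre encodes a cell adhesion protein of the immunoglobulin family. On the other side, N was followed by the gene CG18508. Fcp3C, CG3939 and dnc came next, and dnc encodes a cAMP phosphodiesterase needed for learning. On 3R, the order from low to high coordinates was E(spl)mdelta-HLH, E(spl)mgamma-HLH, E(spl)mbeta-HLH, E(spl)m3-HLH, E(spl)m5-HLH, E(spl)m7-HLH, E(spl)m8-HLH and gro. Among them lay 5 further protein-coding genes. Of these, 4 belong to the Bearded family of Notch targets (E(spl)malpha-BFM, E(spl)m2-BFM, E(spl)m4-BFM and E(spl)m6-BFM), and the other is Kaz-m1. A total of 6 lncRNA genes were also listed there. CG43116 and Nf1, which encodes neurofibromin, preceded the complex, and Exo84 and Vps2 followed it.

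Each region carries the authors' score, read as log2 enrichment of ChIP over input, so that a score of 1 is 2-fold. Scores describe and rank regions within a list. Each list carries its own constant, so scores of different lists are set side by side as deposited values and not as differences in occupancy. The median score of all regions was 0.70 in the replicate 1 list and 0.83 in the replicate 2 list. Means and SDs of scores over the replicates therefore mix the scale of each list with replicate spread. Enriched regions covered 27.8% of X and 26.9% of 3R in replicate 1, 20.4% and 30.4% in replicate 2, and 36.1% and 37.9% in the combined list. The sources used here give no read number per library, so counting intervals are left out. A stretch without a region is one in which no enrichment was listed, not one shown to lack LSD1.

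At the receptor gene, listed regions stood at the ends of N, and hardly any base between the ends was covered. The high-coordinate end was listed in all 3 lists and the low-coordinate end in replicate 1 and the combined list. The approximate gene span of 37.4 kb was covered over 2.78% in the replicate 1 list, 0.473% in the replicate 2 list and 5.79% in the combined one. Windows of the same length tiled along X had median coverages of 23.2%, 15.6% and 33.4%. Coverage as low as that of the Notch span was found in 13.7% of the 599 tiled windows in the replicate 1 list, 17.9% in the replicate 2 list and 14.7% in the combined one. Coverage this low was therefore not rare on X. The flanks of the gene inside the window were covered much more. The high-coordinate flank of 5.7 kb was covered over 94.4%, 72% and 100%, and the low-coordinate flank of 5.9 kb over 49.1%, 26.4% and 48.8% (the lists in the same order).

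Notch is transcribed towards higher coordinates, so its promoter lies at the low-coordinate end of the span. Replicate 1 listed X:3027660-3029836, a region of 2177 bp across the approximate gene start, with a score of 1.11 (2.16-fold). Replicate 2 listed no region there. In the combined list the same position was held by X:3027798-3029744, of 1947 bp, with a score of 0.33 (1.26-fold). The start of N was thus listed in 1 of 2 replicates. Its rank also differed between lists. In replicate 1, 17.5% of the 1655 regions on X scored at least as high, whereas in the combined list 97.7% of the 2250 regions on X did.

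Both replicates listed regions at the approximate high-coordinate end of N. Replicate 1 listed X:3066198-3068271 (2074 bp), with a score of 0.78 (1.72-fold), and X:3068589-3073284 (4696 bp), with a score of 0.92 (1.89-fold). Replicate 2 listed X:3066124-3068674 (2551 bp), at 1.21 (2.31-fold), and X:3070271-3073189 (2919 bp), at 1.31 (2.49-fold). The combined list had a single region across this stretch, X:3066080-3073402, of 7323 bp, with a score of 0.88 (1.84-fold). In every list the first of these regions crossed the approximate end of the gene, beginning 102 bp before it in the replicate 1 list, 176 bp in the replicate 2 list and 220 bp in the combined one. Most of the length of the listed regions lay past N, on the side of CG18508, Fcp3C, CG3939 and dnc. Because the gene end is approximate, whether any of them reaches N itself is not settled. No region could be assigned to 1 of these genes.

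These regions ranked higher on X in replicate 2 than in replicate 1. The region across the gene end was reached or exceeded in score by 13% of X regions in replicate 2 and by 66.4% in replicate 1. For the region beyond it the shares were 6.11% in replicate 2 and 39.6% in replicate 1. The deposited scores averaged 1.00 ± 0.30 across the gene end and 1.12 ± 0.28 beyond it (SD, n = 2). Replicate 2 stood above replicate 1 by 0.42 and 0.39. Over the 1016 overlapping pairs of X the median of this difference was 0.069 with an SD of 0.28, and 8.56% and 10.7% of pairs had a difference at least as large.

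The remaining regions of the Notch window were 1 at its low-coordinate edge and 1 inside the gene. The edge region was X:3020658-3024653 in the replicate 1 list (3996 bp, score 0.90), X:3023008-3024563 in the replicate 2 list (1556 bp, 0.88) and X:3020346-3024776 in the combined one (4431 bp, 0.66). Its scores in the replicates averaged 0.89 ± 0.016 (SD, n = 2), but its rank differed. On X, 43.6% of replicate 1 regions and 60.3% of replicate 2 regions scored at least as high. The edge region lay upstream of N, on the side of kirre. The region inside the gene was X:3054824-3055922, of 1099 bp, with a score of 0.58 (1.49-fold). It was listed in the combined list alone and overlapped neither replicate. The narrowest region of any kind was 1001 bp in the combined list but 1301 bp in each replicate list. No region as narrow as this one was thus present in a replicate list.

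**Figure D1:**
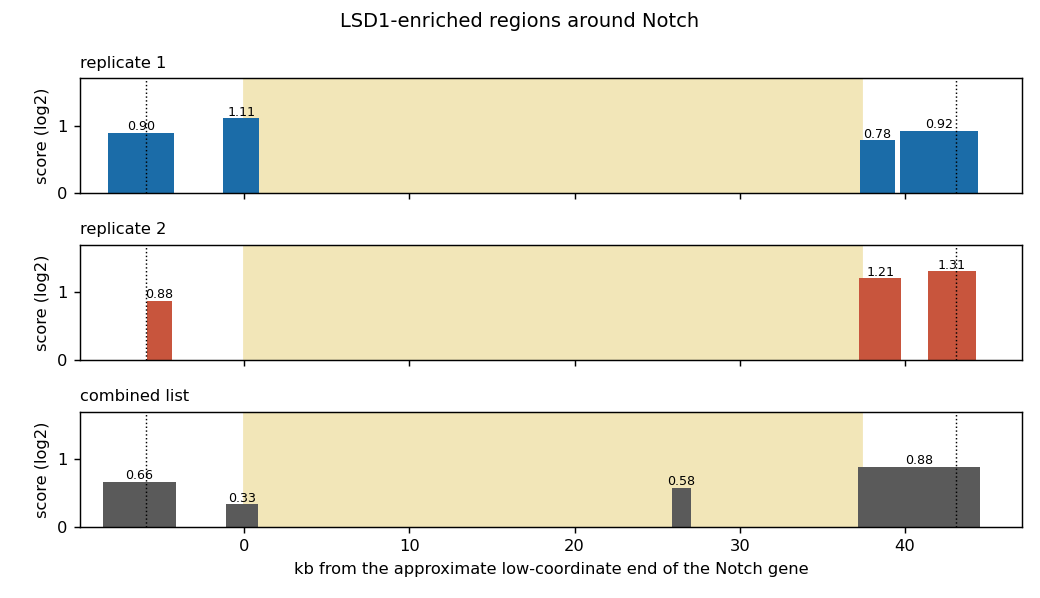
Listed LSD1 regions around Notch, plotted by kb from the approximate low-coordinate end of the gene (horizontal) and by deposited score (log2, vertical). Rows are replicate 1, replicate 2 and the combined list, the shaded band is the approximate gene span, dotted lines are the window's edges and numbers are scores. Regions sit at both ends of the gene in replicate 1 and at the high-coordinate end in replicate 2, and the single region inside the gene, at 0.58, appears in the combined list.

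Around the targets and the corepressor, most regions scored under the median of their arm. Width did not set the complex apart, since 6 of 11 regions in each window were wider than the arm median of their list. Some of these lay close to it, such as 2187 bp against a 3R median of 2166.5 bp in replicate 1. In the Enhancer of split window 8 of 11 regions scored under the median of 3R in their own list, whereas 4 of the 11 in the Notch window scored under that of X. Some of the 8 lay close to the median. For a replicate 1 region 52.0% of 3R regions scored at least as high, and for a replicate 2 region 51.5%. The count takes the same places again in each list. Combined regions derive from the samples of the replicate lists and are not independent of them. The widest region of the Enhancer of split window was 4096 bp in the replicate 1 list, 2204 bp in the replicate 2 list and 4657 bp in the combined one. No region scored above 0.86 (1.81-fold), and those of the combined list lay between 0.23 and 0.54. They fell into 4 places, at about 16 to 22 kb, 52 to 54 kb, 62 to 64 kb and 65 to 67 kb from the low-coordinate end of the window. Both replicates listed the first and the third of these places.

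The first place held the widest regions of the complex. It was listed as 3R:21831446-21835541 in replicate 1 (4096 bp, score 0.76, 1.69-fold). Replicate 2 divided it into 3R:21832581-21834099 (1519 bp, 0.63) and 3R:21834363-21836566 (2204 bp, 0.81). The combined list gave 3R:21831344-21836000 (4657 bp, 0.54). On 3R, 30.6% of replicate 1 regions and 32.1% of combined regions scored at least as high. For the replicate 2 pieces these shares were 83.5% and 51.5%, so that the place ranked above the middle of the arm in replicate 1 and at or under the middle in replicate 2.

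The second place was listed by replicate 1 as 3R:21866610-21868796 (2187 bp, score 0.64, 1.56-fold) and by the combined list as 3R:21866670-21868682 (2013 bp, 0.43), with no region in replicate 2. The third was the weakest in each list. It was 3R:21877501-21879145 in the replicate 1 list (1645 bp, 0.25, 1.19-fold), 3R:21877565-21879035 in the replicate 2 list (1471 bp, 0.44, 1.35-fold) and 3R:21877456-21879174 in the combined one (1719 bp, 0.23, 1.17-fold). At least 97% of the regions of 3R scored as high or higher, with 98.9% in the replicate 1 list, 97.7% in the replicate 2 list and 97.1% in the combined one. The scores of the replicates averaged 0.34 ± 0.13 (SD, n = 2). The fourth place lay across the edge of the window. Replicate 1 gave 3R:21879525-21881696 (2172 bp, 0.86) and the combined list 3R:21879830-21881728 (1899 bp, 0.39). On 3R, 18.4% of replicate 1 regions and 77.3% of combined regions scored at least as high, and replicate 2 had no region overlapping it.

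The 8 members of the complex could not be scored one by one, because the lists carry no gene names and the gene table follows another release. What can be stated holds for the window. In all 3 lists, 3R:21836567-21866609, a stretch of 30 kb between the first and second places, held no region.

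**Figure D2:**
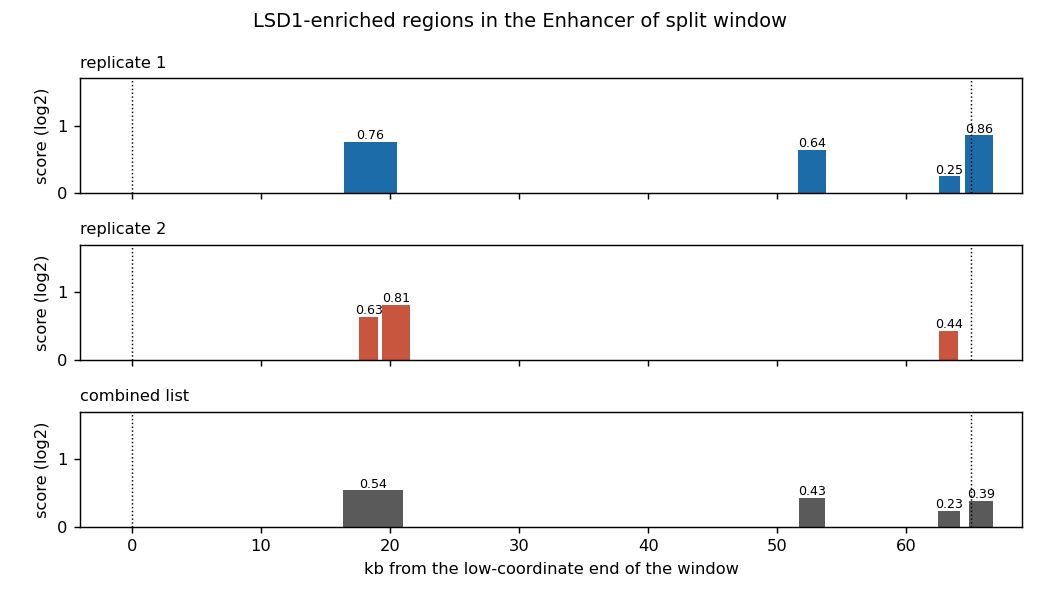
Listed LSD1 regions in the Enhancer of split window, plotted by kb from the low-coordinate end of the window (horizontal) and by deposited score (log2, vertical), with dotted lines at the window's edges and scores as numbers. Rows are replicate 1, replicate 2 and the combined list. The stretch from about 22 to 52 kb is empty in every row, and no bar is higher than 0.86.

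Covered share was then set against windows of the same size tiled end to end along the same arm. The Notch window was covered over 19.0% in the replicate 1 list (9317 bp), 11.9% in the replicate 2 list (5837 bp) and 21.9% in the combined one (10744 bp), a replicate mean of 15.5% ± 5.02 (SD, n = 2). The 457 windows of X had medians of 25.1%, 16.4% and 33.9%, and 59.5%, 60% and 65.6% of them were covered at least as much. Averaged over the replicates, the median of the X windows was 20.4%, and 60.8% of them were covered at least as much as the Notch window. The Notch window was thus an ordinary window of X by this measure, on the lower side of the middle.

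The Enhancer of split window was covered less. Its share was 12.9% in the replicate 1 list (8404 bp), 7.99% in the replicate 2 list (5194 bp) and 13.2% in the combined one (8560 bp), a replicate mean of 10.5% ± 3.49 (SD, n = 2). The 429 windows of 3R had medians of 22.9%, 28.7% and 36.2%, and 70.6%, 83.4% and 83.2% of them were covered at least as much. The median of the 3R windows averaged over the replicates was 25.4%, and 80.0% of them were covered at least as much as the Enhancer of split window. Windows of 1 arm are not replicates of a condition, so no test was made of either position.

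**Figure D3:**
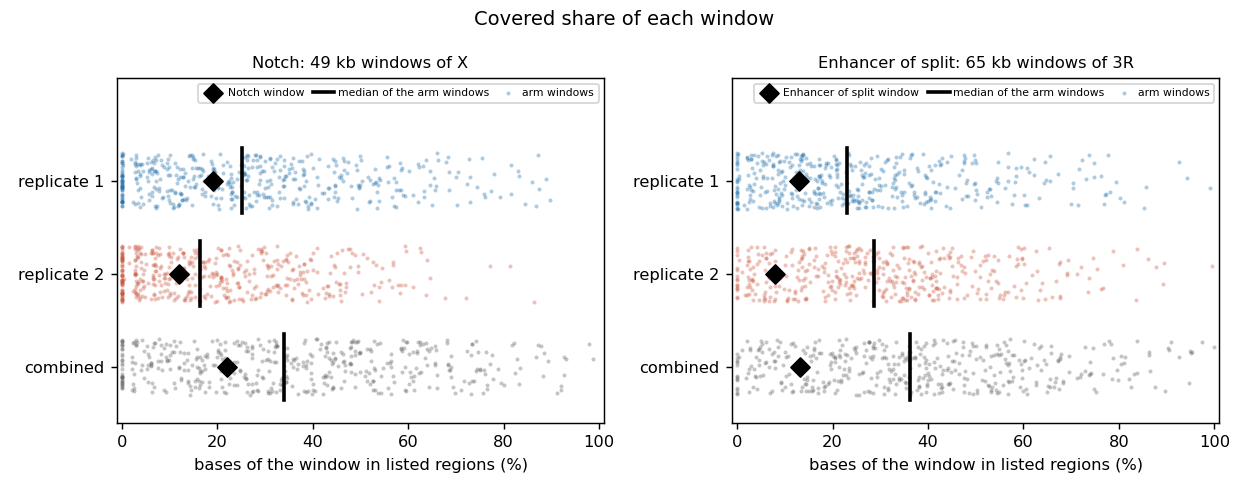
Share of bases in listed regions (percent) for the Notch window among 49 kb windows of X (left) and for the Enhancer of split window among 65 kb windows of 3R (right). Diamonds are the named windows, points are the tiled windows of the arm spread vertically for legibility, and bars are their medians; both diamonds lie left of the median in all 3 lists, further so on 3R.

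Neither window touched a broad domain. Regions of at least 10 kb numbered 0 in both windows and all lists. Such regions overlapped 27.1% of X windows in the replicate 1 list, 9.63% in the replicate 2 list and 33.9% in the combined one, and 32.6%, 29.1% and 50.3% of 3R windows. Most X windows in each list, and most 3R windows in the replicate lists, likewise held none. The nearest broad regions to the Enhancer of split window were 3R:21942901-21955928 in replicate 1 (13 kb, score 1.02) and 3R:21943152-21956077 in replicate 2 (12.9 kb, 1.31). They lay 62.9 and 63.2 kb beyond its high-coordinate edge. In the combined list the nearest was 3R:21792012-21803266 (11.3 kb, 0.81), 11.7 kb before its low-coordinate edge.

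Long stretches without a region took up much of both windows. In the Notch window the longest was 36.4 kb in the replicate 1 list (X:3029837-3066197), 41.6 kb in the replicate 2 list (X:3024564-3066123) and 25.1 kb in the combined one (X:3029745-3054823), or 74.2%, 84.8% and 51.2% of the window. The replicates averaged 39.0 kb ± 3.68 (SD, n = 2). A stretch at least as long was present in 17.3%, 19.5% and 25.4% of the X windows, whose medians were 19.8, 23.6 and 15.6 kb. In the Enhancer of split window the longest stretch was 31.1 kb in the replicate 1 list, 41.0 kb in the replicate 2 list and 30.7 kb in the combined one, an average of 36.0 kb ± 7.02 over the replicates (SD, n = 2). One at least as long was present in 37.1%, 16.6% and 23.3% of the 3R windows. The Notch stretch of both replicates ran over nearly the whole gene, whereas in replicate 2 that of the complex extended past the second place, which this replicate did not list.

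**Figure D4:**
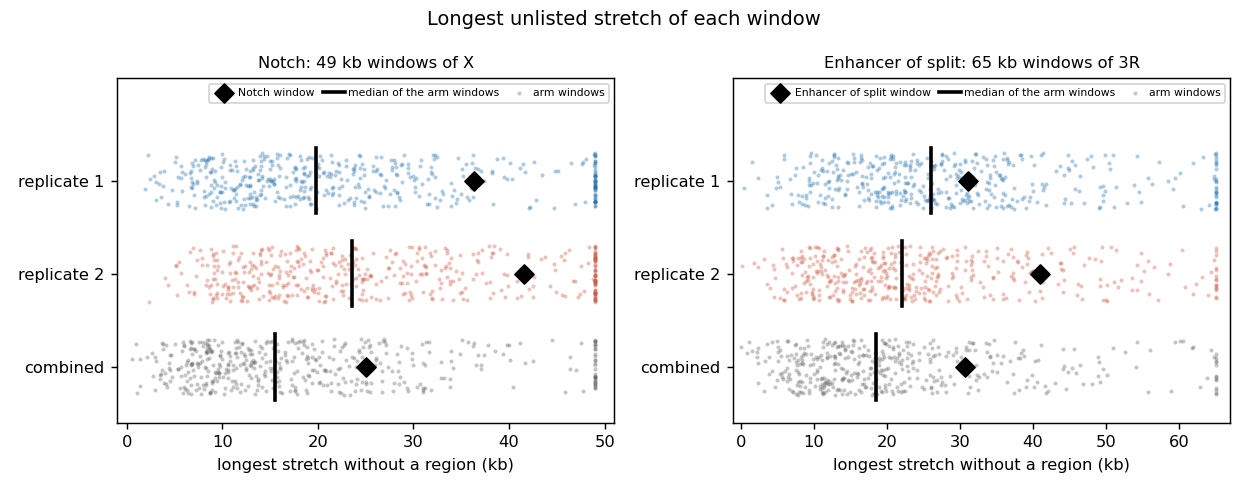
Longest stretch without a listed region (kb) in the Notch window among 49 kb windows of X (left) and in the Enhancer of split window among 65 kb windows of 3R (right). Diamonds are the named windows, points the tiled windows and bars their medians; points at the right edge are windows with no region, and each diamond lies right of its median, between 25.1 and 41.6 kb for Notch and between 30.7 and 41.0 kb for Enhancer of split.

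By score, the Notch window stood near or above the middle of its arm and the Enhancer of split window in the lower part of its own. The mean score weighted by covered bases was 0.93 in the replicate 1 list, 1.15 in the replicate 2 list and 0.72 in the combined one in the Notch window. X windows that held a region had medians of 0.96, 1.00 and 0.71, and 56.6%, 19.5% and 49.5% of them scored at least as high. The Enhancer of split window had 0.63 in the replicate 1 list, 0.65 in the replicate 2 list and 0.45 in the combined one. Its 3R counterparts had medians of 0.75, 0.91 and 0.62, and 79%, 95.7% and 90.9% of them scored at least as high. The Notch window averaged 1.04 ± 0.16 and the Enhancer of split window 0.64 ± 0.014 over the replicates (SD, n = 2). The SD of 0.014 does not measure agreement in rank, since the Enhancer of split shares above were 79% and 95.7% in the replicates. Regions of X had higher median scores than regions of 3R in every list (0.86 and 0.65 in replicate 1, 0.93 and 0.82 in replicate 2, 0.61 and 0.47 in the combined list), so the 2 windows are best read against their own arms.

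**Figure D5:**
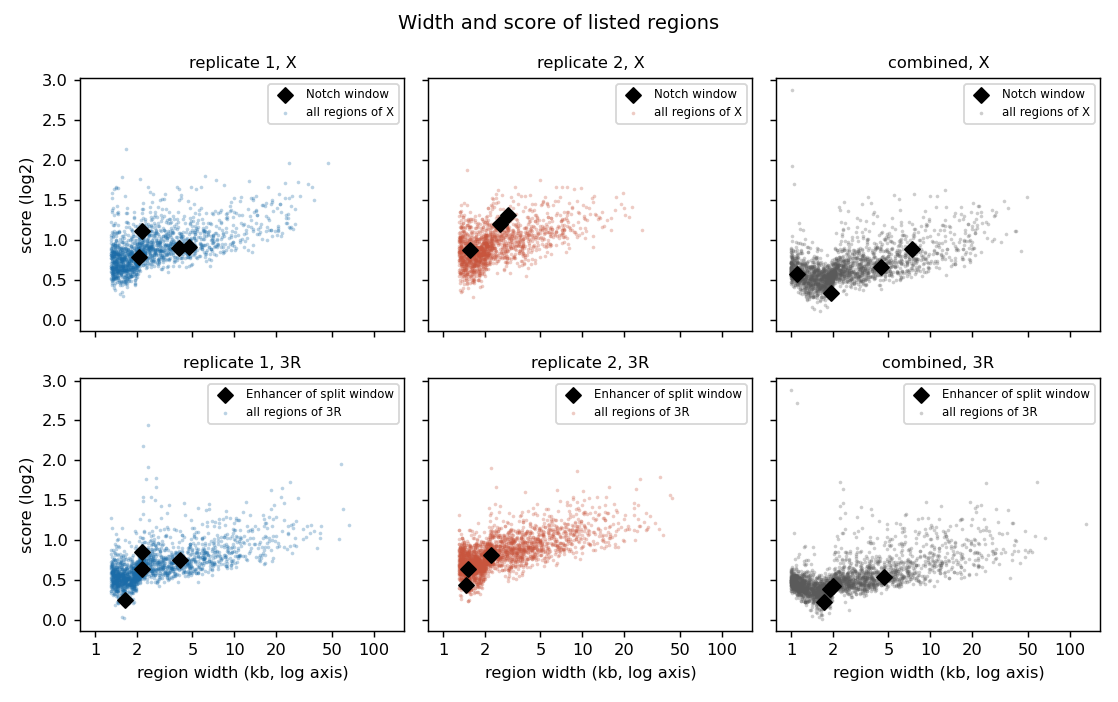
Width (kb, log axis) and deposited score (log2) of listed regions on X (upper row, with the Notch window) and 3R (lower row, with the Enhancer of split window) in replicate 1, replicate 2 and the combined list. Diamonds are the regions of the named window and points all regions of the arm; the Notch diamonds of replicate 2 reach 1.31, and the lowest Enhancer of split diamonds, at 0.25, 0.44 and 0.23, lie at the lower edge of the points.

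The replicate lists were compared within each window. In the Notch window 3 of 4 replicate 1 regions were overlapped by replicate 2 by at least 1 bp, where 61.4% of replicate 1 regions on X were, and 3 of 3 replicate 2 regions were overlapped by replicate 1, where 80.1% on X were. In the Enhancer of split window the counts were 2 of 4 and 3 of 3, against 79.5% and 66.6% of regions on 3R. Bases covered by both replicates made up 56.1% of those covered by either in the Notch window and 44.2% in the Enhancer of split window. Over the whole arm this share was 47.9% on X and 55.7% on 3R. A share at least as high was found in 28.6% of X windows and 61.2% of 3R windows that held a region. Most of what replicate 2 listed was also listed by replicate 1, namely 93.3% of its covered bases in the Notch window and 80.3% in the Enhancer of split window. The reverse shares were 58.5% and 49.6%. Shares in 1 direction were not computed for the whole arms, so none of these 4 values is read as high or low. When each region had to cover at least 50% of the other, 2 of 4 replicate 1 regions and 2 of 3 replicate 2 regions matched in the Notch window (33.4% and 34.5% on X). In the Enhancer of split window 1 of 4 and 1 of 3 did (46.5% and 35.9% on 3R).

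Of the combined regions, 2 of 4 in the Notch window were overlapped by both replicates (38.8% on X), 1 by replicate 1 alone (26.2%) and 1 by neither (23.9%). In the Enhancer of split window 2 of 4 were overlapped by both (43.4% on 3R) and 2 by replicate 1 alone (12.9%), with 0 overlapped by neither (20.6%). With 3 or 4 regions a window and list, no test of these counts against the arm was made.

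Adjoining windows of the same size showed how local the low coverage was. On the high-coordinate side of the Notch window, coverage was 55.7% in the replicate 1 list, 43.6% in the replicate 2 list and 67.6% in the combined one, more than in the Notch window in each list. On its low-coordinate side coverage was 54.5% in replicate 1 and 61.0% in the combined list but 0% in replicate 2, which had no covered base in 13.6% of the X windows. For the Enhancer of split window, the low-coordinate neighbour was covered over 15.7%, 27.1% and 25.4% and the high-coordinate neighbour over 18.2%, 12.7% and 18.2%. Both neighbours were covered less than the median 3R window in each list (22.9%, 28.7% and 36.2%). Coverage under the median was therefore not confined to the Enhancer of split window. In replicate 2, however, the low-coordinate neighbour was close to the median (27.1% against 28.7%). The Enhancer of split window had the lowest coverage of the 3 in every list. Its regions also had the lowest mean scores of the 3, with neighbours between 0.69 and 1.26 over all lists.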

How the data were processed

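Region lists of 2 LSD1 ChIP samples and 1 combined list were used. The labels tie each input sample to the ChIP list of the same number, and input has no list of its own. Bowtie 0.12.7 is named in the submitters' processing notes, and positions refer to FlyBase release 5, per the file headers. The sources used here name no region caller or threshold and do not say how the combined list was made. The deposited score was read as log2 enrichment. Divided by 1 constant per list, the antilogarithms to base 2 were whole-number ratios for 8110 of 8115, 9911 of 9911 and 10988 of 11016 regions (relative tolerance 1e-12, denominators up to 6000). After a small random shift of every score, 1, 0 and 0 regions gave such a ratio. Depletion entries of the combined list (3) were not used.

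Coverage, stretches without a region, weighted scores and overlaps were computed with Python 3.11.15, NumPy 2.4.6 and pandas 2.3.3, and the functions were tested on simulated regions. Tiled windows began at the first base of the arm. Replicate values are given as mean ± SD, and no test was run, since 2 replicates are too few for one. The text gives all 22 member regions, which include those the naming rule asked for (at least 4 kb wide, the 3 highest-scoring and the 3 narrowest per window and list). Other Notch pathway genes (ligands, proteases, nuclear factors) were planned but not run, because no annotation of release 5 was used here. The members and lists were chosen with earlier results of these data known.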

Additional observations from a re-analysis of the deposited data

How the results depend on the processing

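No paired analysis was possible because the inputs, which share replicate numbers with the ChIP samples, have no region list and no result came from a test. Of 51 alternatives for 10 results, 30 kept the value within 1 SD of the replicates, 21 moved it and 0 reversed it. That SD rests on 2 values and is a weak yardstick. Where a result is the mean of the 2 replicates, leaving 1 out always gives a value within that SD. Such alternatives were bound to count as kept, so the count is no measure of stability. The alternatives for the longest stretch without a region were chosen after seeing the data. Where no construction is named, the cause was not tested.

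With the combined list, the Notch window was covered over 21.9%, and 65.6% of X windows were covered at least as much. Its longest stretch was 25.1 kb. Mean scores were 0.72 (Notch) and 0.45 (Enhancer of split) on that list's own scale, where the median of all regions was 0.51. Among windows with a region, 49.5% on X and 90.9% on 3R scored at least as high, between the shares of the replicates. Within the approximate Notch gene span the replicates' coverage was 1.63%, by construction without the flanks. With regions of the upper 50% of each list by score, 53.6% of X windows were covered at least as much as Notch. The Enhancer of split window then kept 2 regions in replicate 1 and 0 in replicate 2, so the 0% of covered bases shared was fixed by construction. Its 3.52% covered and longest stretch of 54.5 kb average replicate 1 (7.03% and 44.0 kb) with an empty window. The Notch regions of the replicates were all retained. The cut was the median score of each whole list, 0.70 in replicate 1 and 0.83 in replicate 2. It lay under the X medians (0.86 and 0.93) and just above the 3R medians (0.65 and 0.82). Retention is therefore not compared between the windows. The share of X windows at least as covered was 60.0% with windows moved in 1 kb steps and 71.5% among windows with a region in each replicate. Bases covered in both replicates made up 6.41% of the Enhancer of split window. The unweighted mean score there was 0.63, and the highest score averaged 0.83. In the Notch window, on the arm with the higher median scores, the highest score averaged 1.21. Counted as regions overlapped by at least 1 bp, sharing was 85.7% in the Notch window and 71.4% in the Enhancer of split window.

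With either replicate left out, coverage was 11.9% to 19.0% (Notch) and 7.99% to 12.9% (Enhancer of split), and the share of windows at least as covered was 59.5% to 60.0% and 70.6% to 83.4%. Mean scores were 0.93 to 1.15 and 0.63 to 0.65, and longest stretches 36.4 to 41.6 kb and 31.1 to 41.0 kb. The region at the start of N and the second and the fourth place of the Enhancer of split window are absent without replicate 1. Depth, threshold and alignable sequence are not known, which limits any reading of a stretch without regions.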

Other observations

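The window next to Notch on its low-coordinate side, X:2973999-3022999, was singled out after its values were seen. Replicate 1 listed 5 regions there, covering 54.5%, with a widest region of 13374 bp and scores up to 1.01, whereas replicate 2 listed 0 regions. The combined list held 12 regions covering 61.0%, with a widest region of 5119 bp and scores up to 0.79. Of the 457 tiled windows of X, 62 (13.6%) had no base covered in replicate 2. The widest replicate 1 region there was X:2992676-3006049, of 13.4 kb with a score of 0.85, which ended 17.0 kb before the Notch window. The listed regions of the 2 replicates therefore differed more beside Notch than within its window, and the part of depth or threshold in this was not tested.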
